A study of Mus musculus with 6 samples.

Results

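The genes described here act at 7 steps of the early secretory pathway, from targeting of a new protein to the endoplasmic reticulum (ER) to its transport between ER and Golgi. They were 47 of the 23284 genes in the count files. By function they are listed as signal recognition, translocon, signal peptidase, oligosaccharyltransferase, COPII, COPI and cargo receptor genes. The rule that lists them uses no measured value, but the genes were chosen with earlier results of these data known. All 47 were found in the files and all 47 passed the filter on low counts, among 12453 genes tested. Liver RNA was sequenced in 3 FXR-WT and 3 Y67F-FXR libraries, 1 for each biological sample. The mice were FXR-floxed males injected through the tail vein at 8 weeks of age with AAV8 carrying Cre recombinase under the TBG promoter, which is active in hepatocytes, so the floxed gene was a target for deletion in both groups. FXR-WT mice also received AAV8-TBG-FXR WT, and Y67F-FXR mice received AAV8-TBG-Y67F-FXR, in which the tyrosine of FXR that Src phosphorylates is replaced by phenylalanine. Feeding with 0.5% cholic acid (CA) chow for 6 h, begun 4 weeks after injection, preceded collection of the livers. CA is a bile acid that activates FXR, the nuclear receptor for bile acids. The comparison asks how transcripts of secretory genes differ when FXR cannot be phosphorylated at this site. Only hepatocytes are targeted by the vectors, whereas whole liver was sequenced.

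Hepatocytes secrete albumin, clotting factors, apolipoproteins and other plasma proteins, and each of these first enters the ER. The signal recognition particle (SRP) binds the signal peptide on the ribosome and delivers it to the Sec61 channel, where signal peptidase removes the peptide and oligosaccharyltransferase (OST) adds a preassembled glycan to asparagine. COPII vesicles then carry folded cargo to the Golgi, and COPI vesicles return receptors and escaped ER proteins. Many of these genes are known targets of the ATF6 and XBP1 branches of the unfolded protein response, which also controls the ER chaperones.

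None of the 47 genes differed between the groups at an adjusted p under 0.05 with a fitted fold over 1.5 (edgeR's quasi-likelihood test, Benjamini-Hochberg adjustment over all genes tested), a rule that called 0.972% of all genes tested. The fitted values were lower in Y67F-FXR livers for 37 genes and higher for 10, beside 5979 and 6474 of all genes tested. The 37 include Srp54a and Sec61g, whose counts are too low to compare the groups. At an unadjusted p under 0.05, 17 genes were lower in Y67F-FXR and 1, Sec23a, was higher. Over all genes tested this threshold was passed by 6.67% in the lower and 6.75% in the higher direction. The 3 Y67F-FXR livers lay below all 3 FXR-WT livers for 19 genes and above them for 1, where 10.5% and 10.2% of all genes tested did so. The median log2 fold change was -0.19 over the 47 genes and 0.01 over all genes tested. The 17 lower genes were distributed over all 7 steps, with fitted drops from 19.6% to 48.2%. DESeq2 on the same genes called 3 of the 47 lower, namely Sec23b, Ddost and Srprb, and called 1.73% of all genes tested lower. Sec61a1 and Ssr1 had an adjusted p of 0.00907 and 0.047 by DESeq2 but did not reach the fold minimum. Without Y67F-FXR liver 3, the count lower at an unadjusted p under 0.05 was 11 in place of 17, and the share of all genes was 4.65% in place of 6.67%.

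**Figure D1:**
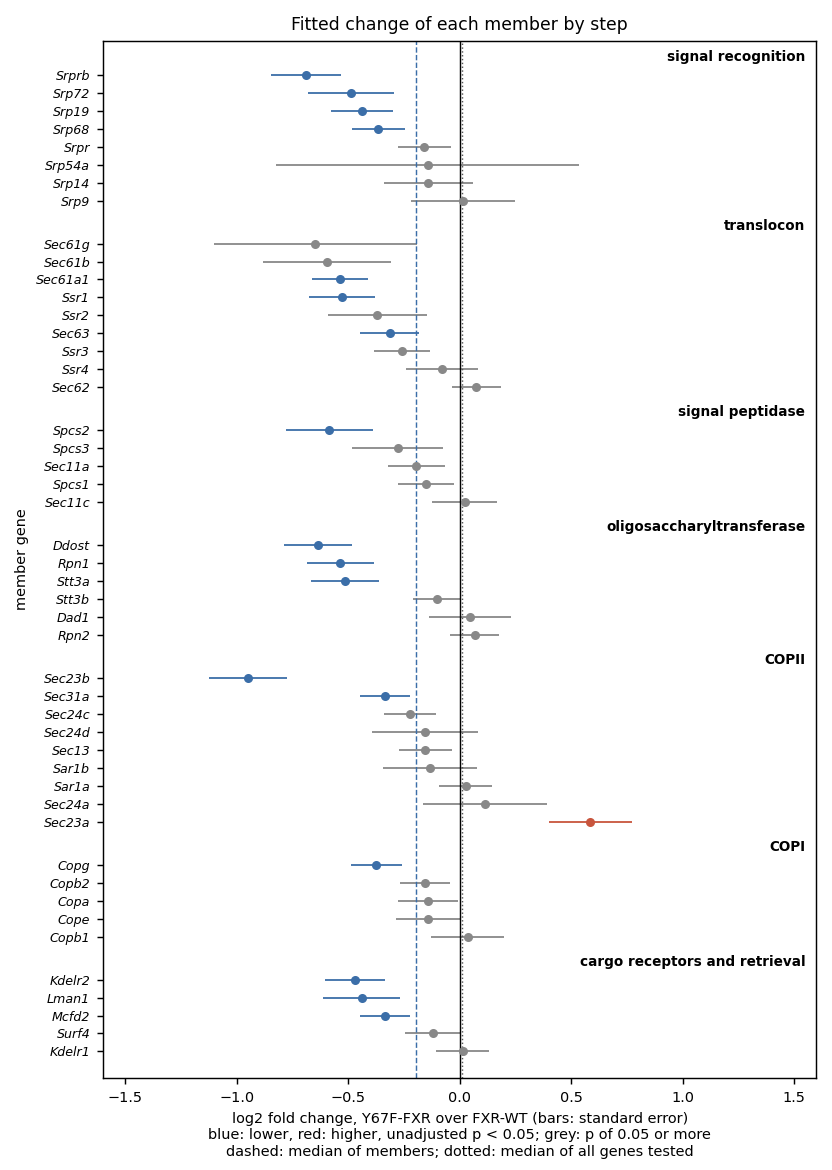
Fitted log2 fold change of Y67F-FXR over FXR-WT livers (x axis) with its standard error for each of the 47 genes (y axis), grouped by step and based on 3 livers per group. Blue genes are lower and the red gene is higher at an unadjusted p under 0.05, the dashed line is the median of the 47 genes at -0.19 and the dotted line is the median of all genes tested at 0.01, and blue genes occur at every step.

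Library totals ranged from 19551113 to 22053320 reads, and the 47 genes took 0.505%, 0.468% and 0.493% of the reads of FXR-WT livers 1 to 3 and 0.419%, 0.372% and 0.399% of those of Y67F-FXR livers 1 to 3. Values below are CPM (read counts scaled to library size with TMM factors), listed in the order of livers 1, 2 and 3. The mouse FXR gene Nr1h4 had 152, 209 and 198 CPM in FXR-WT and 169, 169 and 186 CPM in Y67F-FXR livers, in counts that do not separate the mouse gene from a transgene read that aligns to it. The labels number the samples within each group and name no batch. The p-values of edgeR rest on the spread between the 3 samples of a group, moderated by a variance estimate that edgeR shares over all genes tested. Genes in the shortest 20% stood 0.20 log2 units above the 6-liver mean in FXR-WT liver 1 and 0.22 above it in Y67F-FXR liver 2, and 0.18 and 0.20 below it in FXR-WT liver 3 and Y67F-FXR liver 1. FXR-WT liver 1 was the highest of the 6 livers for 26 of the 47 genes, and Y67F-FXR liver 2 the lowest for 21 and Y67F-FXR liver 1 for 17. With a gene length offset in the fit, 21 of the 47 genes were lower and 1 was higher at an unadjusted p under 0.05, as were 8.21% and 8.57% of all genes tested. Without FXR-WT liver 1 and Y67F-FXR liver 2 together, the counts were 16 and 1, and the shares of all genes were 7.32% and 6.79%.

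**Figure D2:**
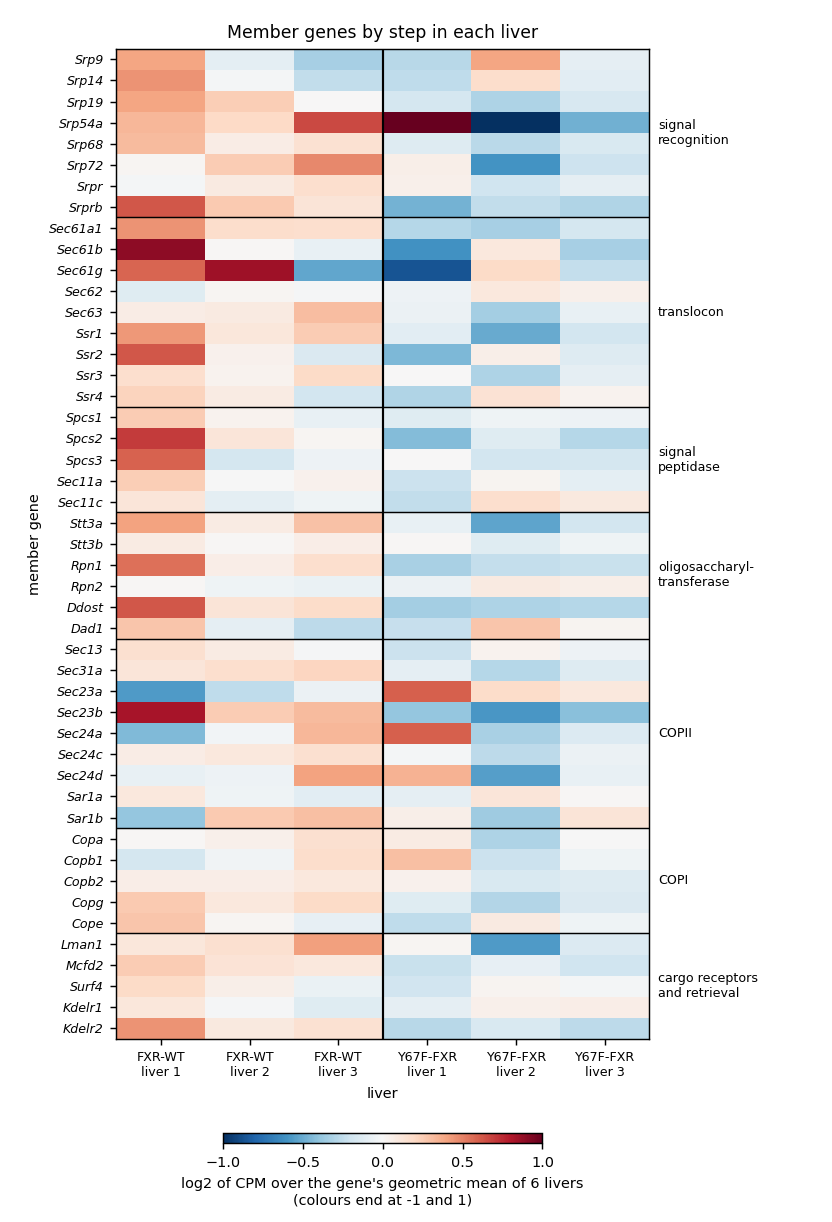
Level of each of the 47 genes (rows, by step) in each of the 6 livers (columns), as log2 of CPM over the gene's geometric mean, with red above and blue below that mean. FXR-WT liver 1 holds the highest value of 26 genes, and Sec23a has the opposite colours to its paralog Sec23b directly beneath it.

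Of the hepatocyte markers, 0 of 7 had an unadjusted p under 0.05, and Cps1, the urea cycle enzyme with the smallest p, stood at a fitted log2 fold change of 0.46 (adjusted p = 0.505 by edgeR). Markers of other liver cells were also read, and edgeR called 0 genes of any of these lists, while 7 were lower and 0 higher at an unadjusted p under 0.05 (2 of 12 Kupffer cell and leukocyte, 1 of 2 plasma cell, 3 of 8 stellate and 1 of 6 endothelial genes). DESeq2 called S100a8, S100a9, Derl3 and Lrat lower. Summed Kupffer cell and leukocyte markers ranged from 180 to 254 CPM in FXR-WT and from 142 to 315 CPM in Y67F-FXR livers, and S100a8, a neutrophil gene with 0.86 to 1.27 CPM in FXR-WT livers, had a log2 fold change of -2.73. Summed stellate cell markers were lower, at 85.0 to 114 CPM in FXR-WT and 69.7 to 78.2 CPM in Y67F-FXR livers, with 7 of 8 genes fitted lower and Lrat, which esterifies retinol, at -1.15 (adjusted p = 0.054 by edgeR). Endothelial markers summed to 161 to 191 and 165 to 174 CPM, with Lyve1 at -0.89 and 3 of 6 genes fitted lower. Cholangiocyte markers summed to 46.2 to 71.2 and 54.1 to 60.6 CPM, with Krt19 at -0.80 the only one of 5 fitted lower and a median of 0.05. With 1 liver left out, Lyve1 ranged from -1.14 to -0.56 and Krt19 from -1.19 to -0.50. Plasma cell markers summed to 8.53 to 28.3 and 5.20 to 6.27 CPM, and Derl3, a gene of this list that also acts in ER-associated degradation, had a log2 fold change of -2.57. Without Derl3 the sums were 2.12 to 3.01 and 2.48 to 3.34 CPM, and Igj, the other gene tested, was at 0.08. The plasma cell receptor Tnfrsf17 was at 0 in 5 of 6 livers. Of the erythrocyte list only Alas2 was tested, with 0.16 (0.03 to 0.23 with 1 liver left out), and the globin genes were listed at 0. The part of other cell types in the secretory genes was not tested, and in whole liver fewer cells of a type and less RNA per cell cannot be told apart.

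Targeting by SRP and its receptor was read from 8 genes, of which 7 were fitted lower, 4 had an unadjusted p under 0.05 and 3 had groups that did not overlap. Srprb, the membrane-anchored beta subunit of the SRP receptor, had 39.8, 31.1 and 28.3 CPM in FXR-WT and 18.7, 21.9 and 21.1 CPM in Y67F-FXR livers. Every Y67F-FXR liver lay below every FXR-WT liver, at -0.69 ± 0.157 on the log2 scale (fitted fold change with its standard error, adjusted p = 0.101 by edgeR). Its receptor partner Srpr, the GTPase alpha subunit, was at -0.16 with overlapping groups, from 186 to 212 CPM in FXR-WT and from 164 to 195 CPM in Y67F-FXR livers. Srp19, which binds the SRP RNA during assembly, had 27.2, 24.6 and 20.8 CPM in FXR-WT and 18.3, 16.7 and 18.5 CPM in Y67F-FXR livers. Its groups were separated by a small gap, with a log2 fold change of -0.44 ± 0.139 (adjusted p = 0.215 by edgeR).

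Srp68 and Srp72 form a heterodimer within the SRP. Srp68 had 71.8, 60.5 and 63.9 CPM in FXR-WT and 52.7, 47.8 and 51.8 CPM in Y67F-FXR livers, which did not overlap (log2 fold change -0.37 ± 0.119). Srp72 was at -0.49 ± 0.193, with 87.8 to 121 CPM in FXR-WT and 57.1 to 90.1 CPM in Y67F-FXR livers, and its groups overlapped by 1 liver on each side. Without FXR-WT liver 3 Srp72 was at -0.37 with an unadjusted p of 0.122 by edgeR. Srp9 and Srp14, the pair that slows elongation, were at 0.02 and -0.14 and both had their highest value in FXR-WT liver 1. Srp54a, the signal peptide-binding GTPase, was near 0 at 0.11 to 1.22 CPM, with a log2 fold change of -0.14 ± 0.679. Its exons share 2590 bases with Srp54b and Srp54c on the same strand, and reads on several genes were not counted, so its level is uncertain.

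At the translocon, 8 of 9 genes were fitted lower, 3 had an unadjusted p under 0.05 and 4 did not overlap. Sec61a1, which forms the pore of the channel, had 162, 134 and 134 CPM in FXR-WT and 97.3, 94.2 and 105 CPM in Y67F-FXR livers. The lowest FXR-WT liver was well above the highest Y67F-FXR liver, and the fitted difference was -0.53 ± 0.126 on the log2 scale (adjusted p = 0.109 by edgeR), a drop of 31.0%. The small channel subunit Sec61b was at -0.59 ± 0.289 with overlapping groups, at 76.0, 41.4 and 38.9 CPM in FXR-WT and 26.9, 44.0 and 32.6 CPM in Y67F-FXR livers. Most of its spread in FXR-WT came from liver 1, without which the log2 fold change was -0.22. Its exons span only 552 bases, and over the alternative fits its adjusted p ranged from 0.0829 by edgeR with the length offset to 0.732 by edgeR without FXR-WT liver 1. The other small subunit, Sec61g, was measured at only 0.34 to 1.12 CPM, with a log2 fold change of -0.65 ± 0.456. Its counts are too low to compare the groups.

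Sec63 and Sec62 act together with the channel. Sec63, the J-domain protein that brings the chaperone BiP to the channel, had 168, 169 and 197 CPM in FXR-WT and 153, 126 and 151 CPM in Y67F-FXR livers (log2 fold change -0.31 ± 0.132, adjusted p = 0.358 by edgeR). Those groups did not overlap, and without FXR-WT liver 3 the log2 fold change was -0.23 with an unadjusted p of 0.164 by edgeR. Sec62, its partner in import after translation, was at 0.08, with a 95% interval from -0.18 to 0.33. Of the 4 subunits of the translocon-associated protein complex, Ssr1 had the largest difference, at 116, 93.4 and 103 CPM in FXR-WT and 80.0, 60.7 and 75.9 CPM in Y67F-FXR livers, without overlap (log2 fold change -0.53 ± 0.148, adjusted p = 0.167 by edgeR). Ssr3 also did not overlap and was at -0.26, while Ssr2 and Ssr4 overlapped and were at -0.37 and -0.08. Without FXR-WT liver 1 Ssr2 was at -0.11.

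Signal peptidase showed 1 gene of 5 with an unadjusted p under 0.05. Spcs2, an accessory subunit, had 128, 85.8 and 79.8 CPM in FXR-WT and 58.5, 72.6 and 64.6 CPM in Y67F-FXR livers. The groups did not overlap, with a log2 fold change of -0.58 ± 0.196 (adjusted p = 0.239 by edgeR). The value in FXR-WT liver 1 stood apart, and without that liver the log2 fold change was -0.35. The other subunits overlapped, with Spcs1 at -0.15 and Spcs3 at -0.28, which were -0.06 and -0.01 without FXR-WT liver 1. The catalytic subunits Sec11a and Sec11c were at -0.19 and 0.02.

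Among the 6 oligosaccharyltransferase genes, 3 had an unadjusted p under 0.05 and the same 3 did not overlap. Ddost, which encodes the OST48 subunit, had 130, 92.6 and 95.9 CPM in FXR-WT and 66.9, 68.2 and 69.5 CPM in Y67F-FXR livers. The 3 Y67F-FXR values lay within 3 CPM of each other and below every FXR-WT value, with a log2 fold change of -0.64 ± 0.152 (adjusted p = 0.113 by edgeR). Rpn1, ribophorin I, had 187, 134 and 144 CPM in FXR-WT and 102, 108 and 110 CPM in Y67F-FXR livers. It did not overlap either and was at -0.54 ± 0.149 (adjusted p = 0.162 by edgeR). Its companion Rpn2, ribophorin II, was at 0.07, with a 95% interval from -0.18 to 0.32. Stt3a, the catalytic subunit that works beside the translocon, had 96.6, 77.5 and 89.6 CPM in FXR-WT and 69.3, 50.8 and 64.5 CPM in Y67F-FXR livers, a fitted log2 fold change of -0.51 ± 0.154 (adjusted p = 0.190 by edgeR). The alternative catalytic subunit Stt3b, which modifies sites that were skipped, was at -0.10, with a 95% interval from -0.35 to 0.15. Dad1, a small subunit, was at 0.05.

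COPII held the gene with the smallest p of the 47 and the only gene higher at an unadjusted p under 0.05. Sec23a and Sec23b encode interchangeable inner coat proteins that stimulate the GTPase Sar1. Sec23b (chromosome 2 of mm9, 144381965 to 144416489) had 68.8, 46.5 and 48.3 CPM in FXR-WT and 29.7, 26.0 and 29.1 CPM in Y67F-FXR livers. Every Y67F-FXR liver was lower than every FXR-WT liver, and the fitted level was 48.2% lower, with a log2 fold change of -0.95 ± 0.173 (adjusted p = 0.0548 by edgeR). The adjusted p was just above the threshold here and under it in 5 of 14 alternative fits, from 0.000225 by DESeq2 to 0.0481 by edgeR with library totals. Sec23a (chromosome 12 of mm9, 60059371 to 60113004) had 40.6, 50.5 and 57.9 CPM in FXR-WT and 91.0, 68.2 and 64.6 CPM in Y67F-FXR livers. It went the other way without overlap, at 0.59 ± 0.184 (adjusted p = 0.210 by edgeR), and its sign held in all 14 alternative fits.

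The starts of both Sec23 genes are shown as RefSeq gives them in build GRCm38.p6, from 200 bases before to 25 bases after the transcription start, because these paralogs differ in direction. The starts of Srprb and Ddost, the genes with the smallest p at their steps, are shown for comparison. Capitals mark the motif TGACGTG, the motif CCACG and the CCAAT box on either strand, and each sequence reads from 5′ to 3′ along its gene. These letters belong to sites described for stress transcription factors of the ER and for NF-Y.
Sec23a (chr12:59011993-59012217, minus strand): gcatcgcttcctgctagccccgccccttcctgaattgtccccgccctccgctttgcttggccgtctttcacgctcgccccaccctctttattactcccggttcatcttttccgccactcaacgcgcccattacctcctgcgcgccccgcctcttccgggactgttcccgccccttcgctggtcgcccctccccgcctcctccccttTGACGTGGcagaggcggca
Sec23b (chr2:144556029-144556253, plus strand): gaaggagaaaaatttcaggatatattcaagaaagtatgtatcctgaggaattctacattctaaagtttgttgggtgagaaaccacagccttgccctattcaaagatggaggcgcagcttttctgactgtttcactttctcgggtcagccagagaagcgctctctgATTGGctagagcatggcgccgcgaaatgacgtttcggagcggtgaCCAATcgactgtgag
Srprb (chr9:103202041-103202265, minus strand): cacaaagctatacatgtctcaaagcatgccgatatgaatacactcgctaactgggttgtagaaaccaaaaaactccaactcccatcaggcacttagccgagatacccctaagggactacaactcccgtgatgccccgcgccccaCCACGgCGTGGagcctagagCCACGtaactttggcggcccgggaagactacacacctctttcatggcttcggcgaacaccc
Ddost (chr4:138304538-138304762, plus strand): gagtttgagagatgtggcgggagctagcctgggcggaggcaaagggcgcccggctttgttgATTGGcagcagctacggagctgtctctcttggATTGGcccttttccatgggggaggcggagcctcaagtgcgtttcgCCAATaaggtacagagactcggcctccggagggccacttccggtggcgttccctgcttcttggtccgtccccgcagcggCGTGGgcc

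The 4 windows differ in which of these letters they hold. That of Sec23a holds TGACGTG from base 7 to 13 after the start, and the CCACG complement CGTGG overlaps it. That of Sec23b holds CCAAT on each strand and no CCACG, and a further RefSeq start of this gene is not shown. Srprb has 3 matches to CCACG, between 56 and 32 bases before the start, and Ddost has 3 matches to CCAAT, with the nearest from 62 to 58 bases before the start, and a match to CCACG just after it. A match describes the letters only.

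A RefSeq window from 250 bases before to 50 after the start was found for 39 of the 47 genes. The full ER stress element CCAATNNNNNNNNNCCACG was in 0 of them, ERSE-II (ATTGGNCCACG) in 0, and the inverted repeat AGGTCANTGACCT read by FXR in 0, in windows searched on both strands. Of the promoters of all 27025 genes with a window, 0.137%, 0.0444% and 0.0111% held these letters. TGACGTG was in 5 of 39 genes (12.8%), against 2.22% of all genes and 3.20% of the tested genes with a window. Those 5 were Sec23a, Srpr, Sec24d, Copb1 and Copb2, with log2 fold changes of 0.59, -0.16, -0.16, 0.04 and -0.16, so none of them is among the 17 lower genes. CCACG alone was in 25 of 39 (64.1%), against 35.5% of all and 51.4% of tested genes, and CCAAT in 43.6%, against 41.1% and 42.8%. The shares are given without a test.

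The remaining COPII genes differed less. Sec31a, of the outer coat, had 152, 157 and 162 CPM in FXR-WT and 131, 115 and 127 CPM in Y67F-FXR livers, with a narrow spread in FXR-WT and no overlap (log2 fold change -0.33 ± 0.112, adjusted p = 0.239 by edgeR). Its partner Sec13 was at -0.15. Of the cargo adaptors that bind export signals, Sec24c did not overlap and was at -0.22, and Sec24a and Sec24d overlapped, at 0.11 and -0.16. The GTPases that start coat assembly, Sar1a and Sar1b, were at 0.03 and -0.13.

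Of the 5 COPI coat genes, Copg, the gamma subunit, had the smallest p. It had 88.0, 79.0 and 84.0 CPM in FXR-WT and 67.4, 59.9 and 66.5 CPM in Y67F-FXR livers, without overlap, and a log2 fold change of -0.37 ± 0.114 (adjusted p = 0.197 by edgeR). Copb2 also did not overlap but was at only -0.16. Copa, Copb1 and Cope overlapped, at -0.14, 0.04 and -0.14. Exons of Copa share 149 bases with Ncstn on the opposite strand, and strand was not used in counting.

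Cargo receptors and retrieval receptors gave 3 genes of 5 with an unadjusted p under 0.05, none of which overlapped. Kdelr2, a receptor that returns chaperones with a KDEL tail to the ER, had 102, 79.8 and 82.7 CPM in FXR-WT and 61.5, 67.2 and 62.2 CPM in Y67F-FXR livers. The fitted log2 fold change was -0.47 ± 0.132 (adjusted p = 0.167 by edgeR), whereas Kdelr1, with the same role, was at 0.01 with a 95% interval from -0.26 to 0.29. Lman1 and Mcfd2 together carry clotting factors V and VIII out of the ER. Lman1 had 152, 157 and 187 CPM in FXR-WT and 142, 94.98 and 128 CPM in Y67F-FXR livers, a fitted log2 fold change of -0.44 ± 0.172. Mcfd2 had 293, 270 and 264 CPM in FXR-WT and 210, 232 and 214 CPM in Y67F-FXR livers, a fitted log2 fold change of -0.33 ± 0.113. Both genes of this complex thus lay lower in each Y67F-FXR liver, and without FXR-WT liver 3 Lman1 was at -0.34 with an unadjusted p of 0.119 by edgeR. Surf4, a receptor of the early pathway, was at -0.12.

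Where the pathway uses alternative paralogs, the share of each was compared per liver on reads per kilobase, over 5 pairs. Sec23a made up 29.5%, 43.5% and 45.9% of the Sec23 pair in FXR-WT and 68.5%, 65.1% and 61.2% in Y67F-FXR livers. Per kilobase, Sec23a was thus the minor partner in each FXR-WT liver and the major partner in each Y67F-FXR liver. The means were 39.7% ± 8.87 and 64.9% ± 3.66 (SD, n = 3). The exact two-sided permutation test gave p = 0.1, the smallest that 3 livers against 3 allow, and 0.125 after adjustment over the 5 pairs. Without FXR-WT liver 1 the difference was 20.2 percentage points, against 25.3 with it. On reads without division by length the difference was 24.4 percentage points. Sec23a then had more reads than Sec23b also in FXR-WT livers 2 (1042 against 959) and 3 (1340 against 1119).

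Differences were smaller in the other pairs, and with 3 livers per group no pair could reach a permutation p under 0.05. Stt3a made up 62.0%, 57.8% and 60.4% of its pair with Stt3b in FXR-WT and 55.0%, 49.6% and 54.2% in Y67F-FXR livers. Kdelr1 made up 66.2%, 69.6% and 67.2% of its pair with Kdelr2 in FXR-WT and 73.8%, 73.9% and 75.6% in Y67F-FXR livers. Sec11a made up 53.2%, 52.6% and 52.4% of its pair with Sec11c in FXR-WT and 51.4%, 48.5% and 47.5% in Y67F-FXR livers. None of these 3 pairs overlapped between the groups, and each had the same smallest exact permutation p of 0.1 (0.125 after adjustment). Among single genes, 10.5% of all genes tested lay below without overlap and 10.2% above. The Sar1 pair overlapped, with Sar1a at 25.2% ± 6.70 and 27.0% ± 4.94 (SD, n = 3, exact permutation p = 0.6).

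**Figure D3:**
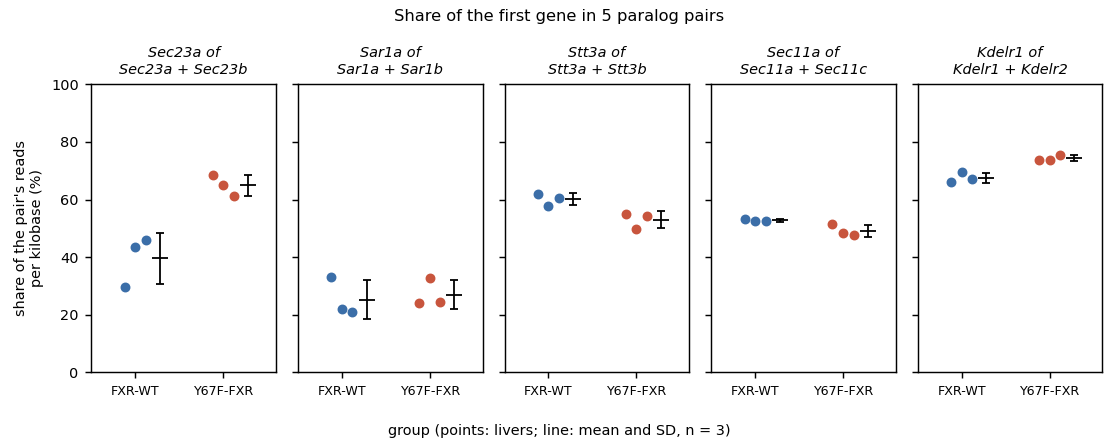
Share of the first gene of each of 5 paralog pairs (y axis, percent of the pair's reads per kilobase) in each FXR-WT and Y67F-FXR liver (x axis), with points for livers and a line for mean and SD (n = 3). Sec23a has the widest separation, from at most 45.9% in FXR-WT to at least 61.2% in Y67F-FXR livers, and the Sar1 pair overlaps.

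Summed by step, the 47 genes had 5032, 4579 and 4695 CPM in FXR-WT and 4112, 3972 and 4116 CPM in Y67F-FXR livers, so that the Y67F-FXR mean was 85.3% of the FXR-WT mean. The sum was lower without overlap at 6 of 7 steps. The Y67F-FXR mean was 83.0% of FXR-WT for signal recognition, 82.7% for the translocon, 81.0% for signal peptidase, 83.1% for oligosaccharyltransferase, 89.9% for COPI and 84.8% for cargo receptors. The COPII sum overlapped, at 679 to 762 CPM in FXR-WT and 594 to 713 CPM in Y67F-FXR livers, a mean of 90.9%. By gene, 11 of the 28 genes of the first 4 steps had an unadjusted p under 0.05 in the lower direction, with a median log2 fold change of -0.30. Of the 14 coat genes 3 did, with a median of -0.15. Of the 5 cargo and retrieval receptor genes 3 did, with a median of -0.33. Differences between steps were not tested. Without FXR-WT liver 1 the share was 91.2% for signal peptidase and 89.1% for oligosaccharyltransferase, and without Y67F-FXR liver 2 it was 95.1% for COPII. Abundant genes weigh most in such sums.

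**Figure D4:**
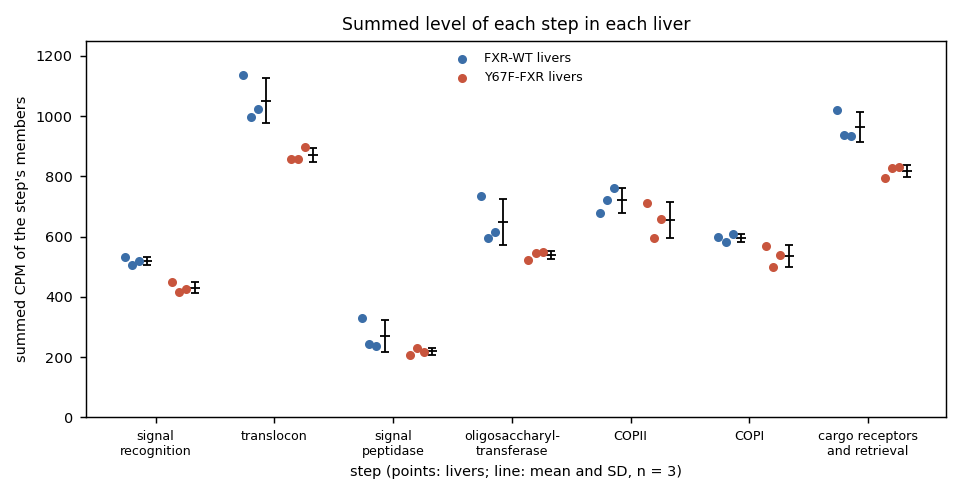
Summed CPM of the genes of each of 7 steps (y axis) in each liver (points), with mean and SD (lines, n = 3) for FXR-WT in blue and Y67F-FXR in red. The groups are separate at 6 steps and overlap for COPII.

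Compared per kilobase of exon (RPKM), the genes differed widely in level within a step. Mcfd2 was highest at 121 RPKM in FXR-WT livers, followed by Cope at 106 RPKM. Cargo receptors had the highest median level of the 7 steps, 99.0 RPKM, and COPII the lowest, 24.3 RPKM, with Sar1b at 94.8 and Sec24a at 6.56 RPKM. The catalytic subunits of OST stood at 32.6 ± 3.58 RPKM for Stt3a and 21.6 ± 0.532 RPKM for Stt3b (SD, n = 3). Sec23b was at 18.7 ± 4.24 and Sec23a at 12.1 ± 2.12 RPKM in FXR-WT livers, and at 9.69 and 18.2 RPKM in Y67F-FXR livers, which reversed their order. Srp54a and Sec61g were far below every other gene, at 0.0725 and 1.06 RPKM. The median coefficient of variation between livers of a group was 11.9% in FXR-WT and 8.93% in Y67F-FXR.

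**Figure D5:**
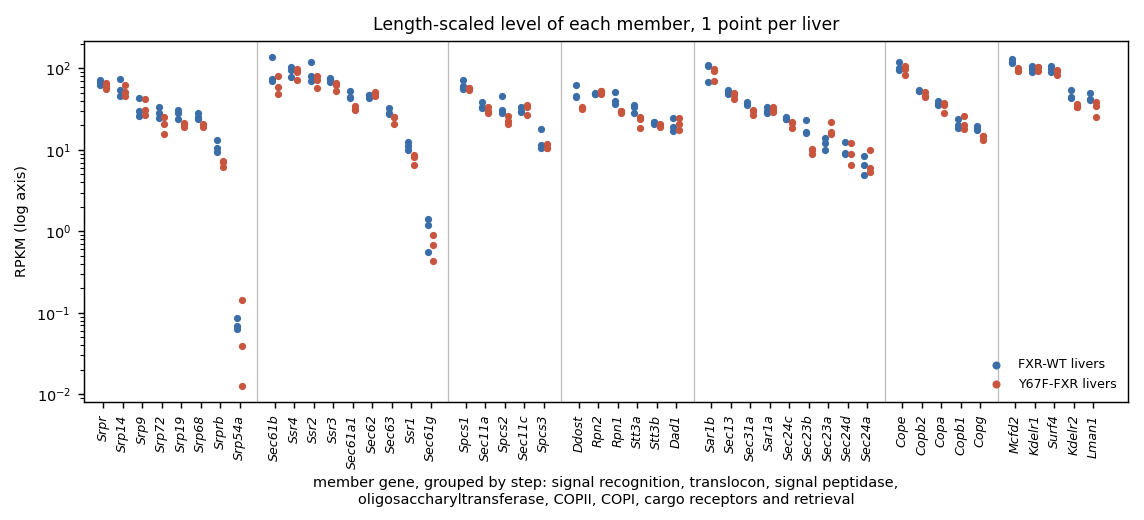
RPKM of each of the 47 genes (x axis, grouped by step and ordered by FXR-WT level) on a log axis, with 1 point per liver, FXR-WT in blue and Y67F-FXR in red. Most genes lie between 6.56 and 121 RPKM, and Srp54a and Sec61g lie below.

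Further genes of the same pathway came from 9 lists with 140 genes tested, and 1 was called, a share of 0.714% beside the 0.972% of all genes tested. This was Magt1, a redox subunit of OST, with 74.4, 59.3 and 67.1 CPM in FXR-WT and 40.4, 34.6 and 41.5 CPM in Y67F-FXR livers. Magt1 was lower in every Y67F-FXR liver, at -0.78 ± 0.136 on the log2 scale (adjusted p = 0.0472 by edgeR). The adjusted p of Magt1 was above the threshold whenever a liver was left out, from 0.0909 to 0.181 by edgeR, with log2 fold changes from -0.86 to -0.71. Over the 140 genes, 24 had an unadjusted p under 0.05 in the lower and 5 in the higher direction. Of all genes tested 6.67% and 6.75% did so. The median log2 fold change of the 140 genes was -0.05.

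The lists differed in their counts, which stand beside 6.67% lower and 6.75% higher over all genes tested at an unadjusted p under 0.05. Genes of sugar nucleotide supply had 5 of 10 lower at an unadjusted p under 0.05 and a median of -0.28. The smallest p was that of the ER nucleotide sugar carrier gene Slc35b1 at -0.90 (adjusted p = 0.0847 by edgeR). DESeq2 called Slc35b1 and Gmppb of this list lower, beside 1.73% of all genes tested. Gmppb was at -0.94 (adjusted p = 0.118 by edgeR). The edgeR fit with the length offset also called Slc35b1. Other OST genes had 2 of 6 and a median of -0.43. Of 23 genes that build the dolichol-linked glycan, 2 were lower and the median was 0.0019, with the mannosyltransferase gene Alg12 at -0.81. DESeq2 called Alg12 lower. Of 22 further targeting and insertion genes, 3 were lower, Dnajc1 had the smallest p at -0.50, and the median was 0.01. Glycan trimming genes had 1 lower and 1 higher of 14, with the folding sensor Uggt1 at -0.38.

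Of 65 genes in the 4 vesicle lists edgeR called 0, with 11 lower and 4 higher at an unadjusted p under 0.05. Over all genes tested 6.67% were lower and 6.75% higher at that threshold. DESeq2 called Scfd1 lower and Tmed5 higher. Tmed5, a p24 protein of COPII and COPI vesicles, had 28.4, 45.5 and 44.2 CPM in FXR-WT and 105, 67.3 and 77.5 CPM in Y67F-FXR livers. Like Sec23a it was higher without overlap, at 1.08 ± 0.230 (adjusted p = 0.0895 by edgeR), among 17 genes of which 3 were lower and 2 higher at an unadjusted p under 0.05. Scfd1, which regulates SNAREs between ER and Golgi, was at -0.75 (adjusted p = 0.0933 by edgeR), among 24 tethers and SNAREs of which 4 were lower and 1 higher. Other COPI genes had 3 of 14 lower, with Arfgap2 at -0.37, and other COPII genes 1 lower and 1 higher of 10, with Pdcd6 at 0.39.

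ER chaperones, the folding machinery that meets proteins inside the ER, were fitted lower for 15 of 15 genes, and 10 were called lower. Their median log2 fold change was -1.08, and Sdf2l1, a cofactor of BiP, was at -2.89 ± 0.315 (adjusted p = 0.0139 by edgeR). Without FXR-WT liver 3 or without Y67F-FXR liver 3, 0 of 15 were called, and 2 to 10 were called without another liver, while the median log2 fold change stayed between -1.27 and -0.98. Of 10 genes for secreted plasma proteins 0 were called by edgeR or DESeq2 and 1 was lower at an unadjusted p under 0.05, their median was -0.0045, and Fgb, for fibrinogen beta, had the smallest p at -0.53 (adjusted p = 0.184 by edgeR).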

How the data were processed

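Whole-liver RNA-seq was available for 3 samples from mice that received FXR-WT and 3 from mice that received Y67F-FXR. The deposited files hold raw read counts per gene on UCSC mm9 models. Per the submitters' processing notes, reads were trimmed with Trimmomatic 0.36 and aligned with STAR 2.5.3a, and the authors counted them with featureCounts 1.4.6-p4, ignoring strand, counting the reads of a pair singly and leaving out reads on several genes or places. A deposited table of the authors' own comparison (fold changes and p-values) was not used. Counts were filtered with filterByExpr, scaled by TMM and tested with edgeR 4.0.16 (glmQLFit, glmQLFTest) in R 4.3.3, and with DESeq2 1.42.0, after tests on simulated data. Libraries of a group differed beyond counting noise (median chi-square per gene from 2.21 to 7.84) and were kept as replicates. Standard errors come from the F statistic. Gene lists, members and steps were chosen with earlier results of these data known. Every one of the 47 genes is named, and livers are listed for those with unadjusted p under 0.05 and no overlap and for the smallest p per step, and for Sec61b, which was chosen after its values were seen. From each other list the gene of smallest p is named, and of the ER chaperones no other gene. Genes of the secretory lists that edgeR or DESeq2 called with all 6 livers are also named. Promoter letters are from RefSeq in GRCm38.p6 and mm9 coordinates from the files. Figures were drawn with matplotlib 3.10.9.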

Additional observations from a re-analysis of the deposited data

How the results depend on the processing

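The 47 genes were refitted under 14 alternatives, and 33 kept their sign in every alternative in which they were fitted. With at least 1 CPM in 3 libraries required, 45 were fitted, without Srp54a and Sec61g. Under the rule used, 1 gene was called lower with library totals, without a filter on low counts, with a gene length offset, and without FXR-WT replicate 1 and Y67F-FXR replicate 2 together (an alternative chosen after seeing the data). That gene was Sec23b. DESeq2 called 3. At an unadjusted p under 0.05 with no fold minimum 17 were lower and 1 higher, and with a fold over 1.5, 3 were lower and 1 higher. The count lower at an unadjusted p under 0.05 ranged from 11 (without Y67F-FXR replicate 3) to 17 when each liver was left out, with 10 of the 18 genes under 0.05 in every alternative. Library totals moved the median of all genes from 0.01 to -0.06, the genes fitted lower from 37 to 44, and the calls over all genes from 53 lower and 68 higher to 68 and 52. They reversed Srp9 (-0.0586), Sec11c (-0.0524), Rpn2 (-0.0048), Dad1 (-0.0257), Sar1a (-0.0452), Copb1 (-0.0297) and Kdelr1 (-0.057). Leaving out both livers reversed Srp54a (0.26), Sec62 (-0.0144), Spcs3 (0.0111) and Sec11c (-0.0084). Leaving out 1 liver at a time, reversals gave ranges of -0.21 to 0.25 for Srp9, -0.28 to 0.0781 for Srp14, -1.42 to 0.30 for Srp54a, -0.19 to 0.041 for Ssr4, -0.0699 to 0.138 for Sec11c, -0.0988 to 0.211 for Dad1, -0.21 to 0.32 for Sec24a, -0.40 to 0.0287 for Sec24d, -0.0394 to 0.0869 for Sar1a, -0.12 to 0.14 for Copb1, -0.0419 to 0.0733 for Kdelr1 and -1.13 to 5.57 percentage points for the share of Sar1a in its pair. The causes were not tested.

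The replicate number as a block called 0 of the 47 genes, 6 lower and 2 higher of all genes, 0 other secretory genes and 2 ER chaperones. Deviations of same-numbered livers correlated at -0.517, -0.0804 and 0.121, so the numbers were not taken to pair mice. Other secretory genes called lower were 5 by DESeq2, 2 with the length offset and 0 without both livers, and called higher 1, 1 and 2. In the same order, these fits called 215, 124 and 97 of all genes lower and 214, 123 and 105 higher. The genes tested were 12453, 12453 and 12503. Leaving out 1 liver gave 0 other secretory genes lower, and 0 to 10 chaperones. The whole table lost calls too, with 7 lower and 2 higher without FXR-WT replicate 3. The counts of Srp54a and Sec61g were too low to compare the groups.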
